A study of Mus musculus with 32 samples.

Results

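The genes described here are 9 components and companions of the signal transduction cascade of vomeronasal sensory neurons (VSNs): the G protein alpha subunits Gnai2 and Gnao1, the gamma subunits Gng8 and Gng13, the inositol trisphosphate receptor Itpr3, the channels Xntrpc, Ano1 and Ano2, and the maturity marker Omp. They were chosen by symbol from the 49671 genes of the count tables, with earlier results of these data known. All 9 passed the filter on low counts, which kept 18382 genes. RNA had been extracted from the vomeronasal organ (VNO) epithelium of 32 individual mice of 4 inbred strains, SWR/J (SWR), C57/BL6 (B6), 129S6/SVEV (129) and SJL/J (SJL). Each strain was represented by 4 males and 4 females at P42, and no mouse carried a transgene or received a treatment according to the labels. The comparisons ask how far gene expression in the VNO differs between strains and between the sexes.

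The counted reads per library ranged from 5106398 to 18640871, with a median of 11461344. In 2 libraries, 129 male replicate 1 and B6 female replicate 1, the summed reads of 4 gland genes (Aqp5, Dmbt1, Muc5b and Bhlha15) reached 8296 and 8221 rpm (counts scaled to a fixed total per library), against 217 to 3765 rpm in the other 30, and results that changed without these 2 are named below. Each library is a piece of tissue with several cell types, so that fewer cells of a type and less RNA per cell cannot be told apart.

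In the VNO, pheromones and other social cues bind to receptors on the microvilli of VSNs. Apical VSNs express V1R receptors with the G protein subunit encoded by Gnai2, and basal VSNs express V2R receptors with the subunit encoded by Gnao1. Release of the beta and gamma subunits activates phospholipase C, whose products open the cation channel Trpc2, and the calcium that enters opens chloride channels of the anoctamin family, which carry much of the depolarizing current.

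None of the 9 genes passed the limits used for differential expression (DE), a fold change (FC) above 2 with a false discovery rate (FDR) under 0.05, in any of the 6 strain pairs by edgeR's quasi-likelihood test, where 19.8% of all tested genes did in at least 1 pair. DESeq2 also called 0. At an unadjusted p under 0.05 the number with an FC above 2 was 0 as well. The fold sizes fixed this count, since none exceeded 1.69 by edgeR. Smaller differences were common. In the overall test of strain 8 of the 9 genes had an FDR under 0.05, all but Ano2, where 73.1% of all tested genes did. Of the 54 comparisons of a gene in a strain pair, 30 had an FDR under 0.05, against 46303 of the 110292 such comparisons over all tested genes (42%), and the largest log2 fold change (LFC) was 0.76 in size, a fold of 1.69. Without the 2 libraries rich in gland reads 29 of the 54 comparisons were called.

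Of the 6 pairs, B6 against 129 had the largest median absolute LFC of the 9 genes, 0.42, against 0.25 over all tested genes. In this pair 6 of the 9 genes had an FDR under 0.05, where 52.8% of all tested genes did and 11.1% passed with an FC above 2. Xntrpc, Ano1, Gnai2, Gnao1 and Omp were lower in B6, a direction taken by 25.5% of all genes, and Itpr3 was higher, as were 27.3%. The libraries of the strains did not overlap for 3 genes (Xntrpc, Ano1 and Gnai2), as for 14.4% of all genes.

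In the other pairs 2 to 7 of the 9 genes were called. In SJL against 129, 6 of the 9 genes were called (38.3% of all genes), Gng13 and Itpr3 higher in SJL (18.9%) and Xntrpc, Gnao1, Ano1 and Omp lower (19.4%), and 3 did not overlap (11.9%). In SWR against 129, 5 were called (41.8%), with Itpr3, Gng13 and Gng8 higher in SWR (19.9%), Xntrpc and Gnao1 lower (21.8%), and 1 without overlap (13.5%). In SJL against B6, 4 were called (45.7%), Gng13, Gnai2, Ano1 and Xntrpc, all higher in SJL (22.3% of all genes were higher and 23.4% lower), and 2 did not overlap (13.1%). In SWR against B6, 7 were called (40.9%), all but Itpr3 and Ano2 and all higher in SWR (19.8% of all genes were higher and 21.1% lower), and 2 did not overlap (12.5%). In SWR against SJL, 2 were called (32.5%), Xntrpc higher in SWR (15.5%) and Gng13 lower (17.0%), and all 9 overlapped, against 10.2% of all genes without overlap. An FC above 2 was found for 8.38% of all genes in SJL against 129, 7.73% in SWR against 129, 7.99% in SJL against B6, 8.05% in SWR against B6 and 4.5% in SWR against SJL. These pairs share strains, and therefore libraries.

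**Figure D1:**
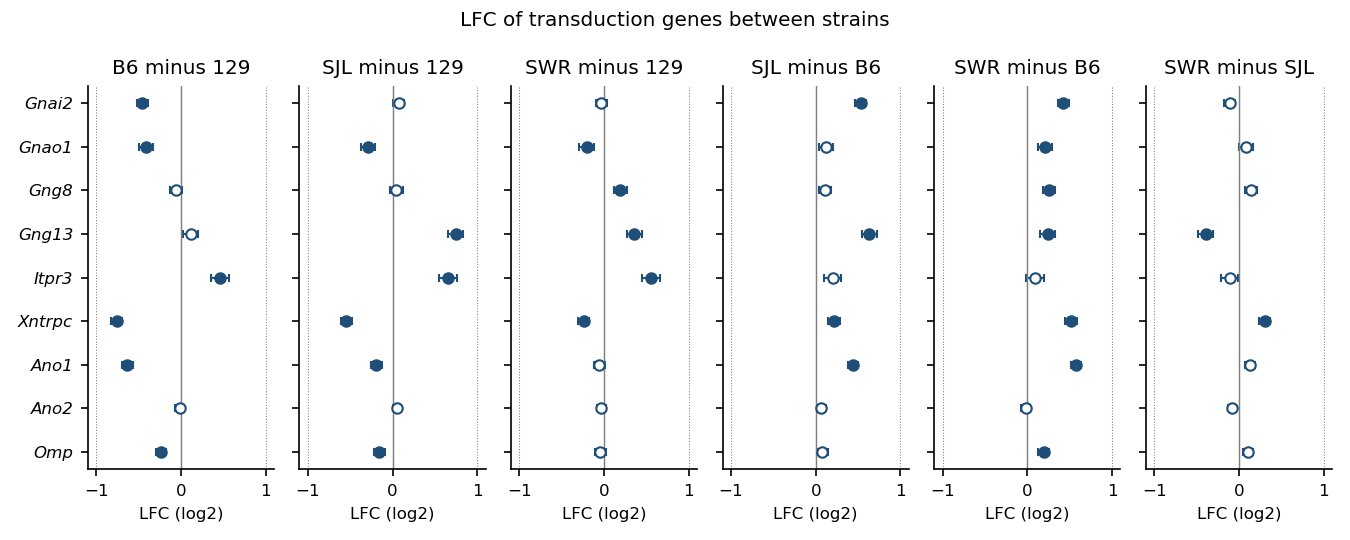
LFC (log2 scale, horizontal axis) of the 9 transduction genes in the 6 strain pairs, with bars of 1 standard error (SE); filled points have an FDR under 0.05 and dotted lines mark an FC of 2. All points lie between the dotted lines, and the points farthest from 0 are Xntrpc in B6 minus 129 (-0.76) and Gng13 in SJL minus 129 (0.75).

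Gnai2 (chr9:107614125-107635367, minus strand) encodes the inhibitory G protein alpha subunit of apical VSNs, and it was low in B6. Its normalized counts, the deposited counts divided by the library's size factor, had a lowest value of 5397, a median of 5876 and a highest of 6927 in the 8 B6 libraries. The values were 7508, 8558 and 8854 in 129, 7799, 8657 and 9971 in SJL, and 6797, 8251 and 9901 in SWR. Every B6 library lay below every 129 and SJL library, whereas the highest B6 library lay above the lowest SWR library. The LFC was -0.46 ± 0.07 (SE) for B6 minus 129 (FDR 4.1e-07), 0.53 ± 0.07 for SJL minus B6 (FDR 3.4e-08) and 0.42 ± 0.07 for SWR minus B6 (FDR 2.4e-06), all by edgeR. The other 3 strains were not separated by the test, with LFCs between -0.11 and 0.07.

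Gnao1 (chr8:93809966-93969388, plus strand), the alpha subunit of basal VSNs, was highest in 129. The lowest, median and highest normalized counts were 1444, 1865 and 2273 in 129, 1151, 1475 and 1562 in B6, 1232, 1546 and 2077 in SJL, and 1504, 1630 and 1889 in SWR. All strains overlapped. Gnao1 was lower than in 129 by an LFC of -0.42 ± 0.08 in B6 (FDR 9.6e-05) and -0.30 ± 0.08 in SJL (FDR 0.0050), by edgeR. The differences of SWR from 129 (LFC -0.21, FDR 0.043) and from B6 (LFC 0.21, FDR 0.045) were near the threshold, and leaving out any of 18 and 8 libraries respectively took them past it (FDR up to 0.11 and 0.091).

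The ratio of Gnai2 to Gnao1 reads, which does not depend on scaling between libraries, set the transcripts of these alpha subunits in the whole tissue side by side. Its lowest, median and highest values were 3.87, 4.37 and 5.26 in 129, 3.63, 4.26 and 4.99 in B6, 4.02, 5.86 and 7.43 in SJL, and 3.98, 5.14 and 6.54 in SWR. All strains overlapped, and the spread in SJL (SD 1.09, n = 8) was more than that in B6 (SD 0.481, n = 8). An exact two-sided permutation test within sex (4900 arrangements, smallest possible p 0.000408, adjusted over 6 pairs) gave a log2 ratio higher by 0.38 in SJL than in 129 (adjusted p = 0.013) and by 0.42 than in B6 (adjusted p = 0.013). SWR was higher than 129 by 0.16 (adjusted p = 0.030) and than B6 by 0.21 (adjusted p = 0.045) in the same exact permutation test. Without the 2 libraries rich in gland reads the exact adjusted p of these SWR differences was 0.078 and 0.080. B6 and 129 did not pass (-0.05, exact adjusted p = 0.51), nor did SWR and SJL (-0.21, exact adjusted p = 0.12). B6 thus had the lowest mean of both alpha subunits, with a ratio near that of 129. For Gnao1, however, B6 was not separated from SJL (LFC of SJL minus B6 0.12, FDR 0.25 by edgeR). Summed reads of the 3 listed apical VSN markers had a median of 580 rpm (B6), 596 (SJL), 604 (129) and 650 (SWR). For the 2 listed basal VSN markers the median was 223 rpm (B6), 250 (SJL), 251 (129) and 283 (SWR). Whether the Gnai2 to Gnao1 ratio follows the shares of apical and basal VSNs was not tested.

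The receptor families did not follow the same order of strains. Summed over 207 V1r and 123 V2r genes, the V1r to V2r read ratio averaged 0.444 ± 0.048 (SD, n = 8) in 129, 0.399 ± 0.022 in SJL, 0.385 ± 0.027 in SWR and 0.350 ± 0.021 in B6. 129 thus had the highest receptor ratio and the second lowest mean Gnai2 to Gnao1 ratio. V2r reads were fewest in 129 (7472 rpm), and SJL had 9071, SWR 9618 and B6 9943. V1r reads were also fewest there (3292 rpm), while B6 had 3478, SJL 3619 and SWR 3699. Reads of all strains were aligned to GRCm38, and the paper states that 129, SWR and SJL then lacked complete reference genomes. It also reports many polymorphisms in Vmn2r116 of 129 mice. Whether receptor reads were lost in alignment was not tested, and this receptor ratio was not tested between strains.

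**Figure D2:**
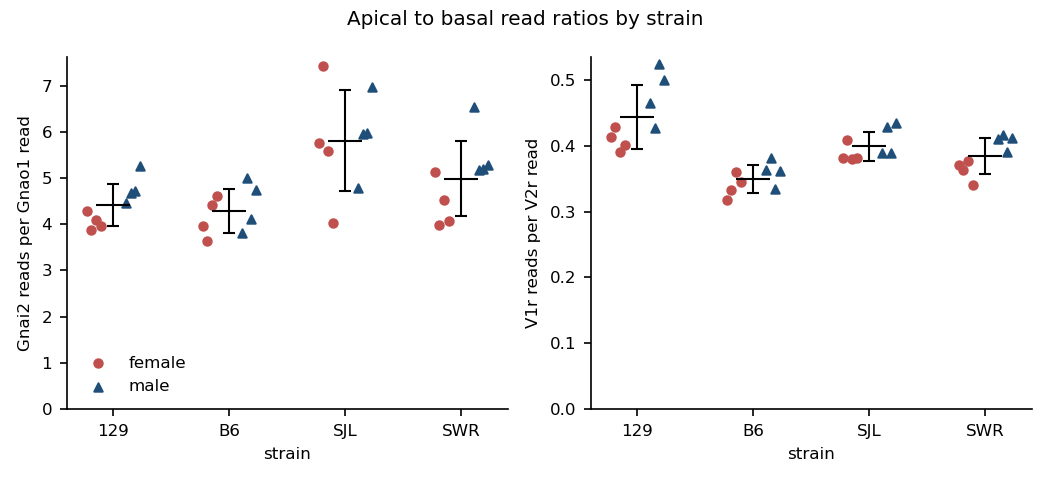
Gnai2 reads per Gnao1 read (left) and V1r reads per V2r read (right) in each library by strain, with females as circles, males as triangles and the mean ± SD of 8 libraries in black. In SJL the Gnai2 to Gnao1 ratio runs from 4.02 to 7.43, and for this ratio all males lie above all females in SWR and 129.

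Gng8 and Gng13 encode G protein gamma subunits, which anchor the beta and gamma dimer in the membrane by a prenyl group on a C-terminal cysteine. The coding sequences of transcripts Gng8-201 (chr7:16894944-16895363, plus strand, 213 bases) and Gng13-202 (chr17:25718701-25719032, plus strand, 204 bases) in GENCODE M21 on GRCm38 are shown because these paralogs differed between strains in unlike ways. Capitals mark the last 4 codons before the stop, the prenylated CAAX box.
Gng8: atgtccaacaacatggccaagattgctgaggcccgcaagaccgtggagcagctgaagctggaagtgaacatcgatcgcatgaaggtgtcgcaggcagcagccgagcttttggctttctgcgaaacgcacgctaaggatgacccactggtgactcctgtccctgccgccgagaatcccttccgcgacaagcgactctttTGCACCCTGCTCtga
Gng13: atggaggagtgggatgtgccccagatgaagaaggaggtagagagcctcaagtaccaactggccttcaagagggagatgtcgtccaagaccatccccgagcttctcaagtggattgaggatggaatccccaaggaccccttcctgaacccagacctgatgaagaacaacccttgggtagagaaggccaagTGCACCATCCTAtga
In a global alignment 112 of 197 aligned bases (56.9%) were identical, and no exon base of either gene is shared with another gene of the same strand.

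Gng13 was highest in SJL. Its lowest, median and highest normalized counts were 544, 672 and 804 in 129, 609, 724 and 858 in B6, 630, 872 and 1172 in SWR, and 913, 1168 and 1233 in SJL. Every SJL library lay above every 129 and B6 library. The LFC was 0.75 ± 0.09 for SJL minus 129 (FDR 1.8e-08), 0.63 ± 0.09 for SJL minus B6 (FDR 4.3e-07) and -0.39 ± 0.09 for SWR minus SJL (FDR 6.1e-04), by edgeR. SWR lay between, above 129 by 0.35 ± 0.09 (FDR 0.0016) and above B6 by 0.24 ± 0.09 (FDR 0.029). The last call was lost without SWR male replicate 2 (FDR 0.080) or B6 male replicate 3 (FDR 0.061). B6 and 129 did not pass (LFC 0.11, FDR 0.31).

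Gng8, a gamma subunit known from VSNs, had its highest mean in SWR. The lowest, median and highest normalized counts were 1851, 2141 and 2487 in 129, 1701, 2156 and 2310 in B6, 1931, 2236 and 2539 in SJL, and 2079, 2449 and 3229 in SWR. All strains overlapped. By edgeR, SWR exceeded B6 by 0.26 ± 0.07 (FDR 0.0050) and 129 by 0.19 ± 0.07 (FDR 0.032), and the latter call was lost without 129 male replicate 1 (FDR 0.085), SWR male replicate 2 (FDR 0.085) or 129 male replicate 3 (FDR 0.067), and without the 2 libraries rich in gland reads (FDR 0.065). SWR and SJL did not pass (LFC 0.15, FDR 0.12). The LFC of SJL minus 129 was 0.04 for Gng8, against 0.75 for Gng13. Within strains these genes nevertheless varied together (Pearson's r = 0.768 over 32 libraries, centred by strain), which was the highest value among the 36 pairs of the 9 genes.

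Itpr3 (chr17:27057304-27122223, plus strand) encodes an inositol trisphosphate receptor that releases calcium from stores downstream of phospholipase C, and it was lowest in 129. The lowest, median and highest normalized counts were 260, 323 and 392 in 129, 318, 443 and 549 in B6, 414, 510 and 613 in SJL, and 407, 470 and 617 in SWR. Every SJL and SWR library lay above every 129 library. Relative to 129 the LFC was 0.46 ± 0.11 in B6 (FDR 4.9e-04), 0.66 ± 0.10 in SJL (FDR 4.3e-06) and 0.55 ± 0.10 in SWR (FDR 6.0e-05), by edgeR. B6, SJL and SWR were not separated, with LFCs of -0.11 to 0.20.

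Plcb2, a phospholipase C beta that makes inositol trisphosphate, is not among the 9 genes but was likewise lowest in 129. Its normalized counts were 69.9 to 109.5 in 129, 119.4 to 171.7 in SJL, 166.5 to 214.9 in SWR and 164.6 to 238.8 in B6, so that all 129 libraries lay below all others. The LFC relative to 129 was 1.050 ± 0.089 in B6 (FDR 7.9e-12), 1.001 ± 0.089 in SWR (FDR 2.3e-11) and 0.61 ± 0.09 in SJL (FDR 1.3e-06), by edgeR. Without B6 female replicate 3 the LFC of B6 fell just short of an FC of 2.

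Itpr3, Plcb2 and Gng13 are also expressed in solitary chemosensory cells, and Gng13 in olfactory sensory neurons of the main epithelium. The 6 listed markers of solitary chemosensory cells (Trpm5, Pou2f3, Gnat3, Avil, Gfi1b and Chat) summed to between 3.67 and 14.1 rpm in the B6 libraries, 1.49 and 6.79 in 129, 2.32 and 4.50 in SJL, and 1.04 and 4.98 in SWR. Of these markers only 3 passed the filter, and 2 were called with an FC above 2 in at least 1 strain pair, where 19.8% of all tested genes were. The 7 listed markers of main olfactory neurons summed to between 1061 and 1312 rpm in the SJL libraries, 887 and 1107 in 129, 861 and 1007 in B6, and 907 and 1075 in SWR. Rtp1, which made up most of this sum, averaged 8685 normalized counts in SJL and 7248 in 129, while the defining channel Cnga2 averaged 2.29 in SJL, 0.676 in 129, 3.54 in SWR and 24.1 in B6, where it reached 133.9. The part of these cells in the differences of Gng13, Itpr3 and Plcb2 was not tested.

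Xntrpc (chr7:102065713-102096864, plus strand, 22 merged exons) is a read-through gene model that joins Xndc1 to Trpc2, the cation channel on which the VSN response depends. Trpc2 itself (chr7:102083116-102096396) is listed with 0 reads in all 32 libraries. In GENCODE M21, 0 of the 2874 exon bases of Trpc2 are outside Xntrpc, and only 468 of the 5673 exon bases of Xntrpc (8.25%), at its 3′ end (chr7:102096397-102096864), are outside the exons of Trpc2 and Xndc1. Read pairs on shared exons are ambiguous in the counting mode used and are not counted, so that under this annotation the Xntrpc count would rest on the last 468 bases, which lie past the annotated end of Trpc2. The counts were made with another Ensembl release, whose exons were not analysed here and may differ. Transcripts that start at Trpc2 and at Xndc1 cannot be told apart there.

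**Figure D3:**
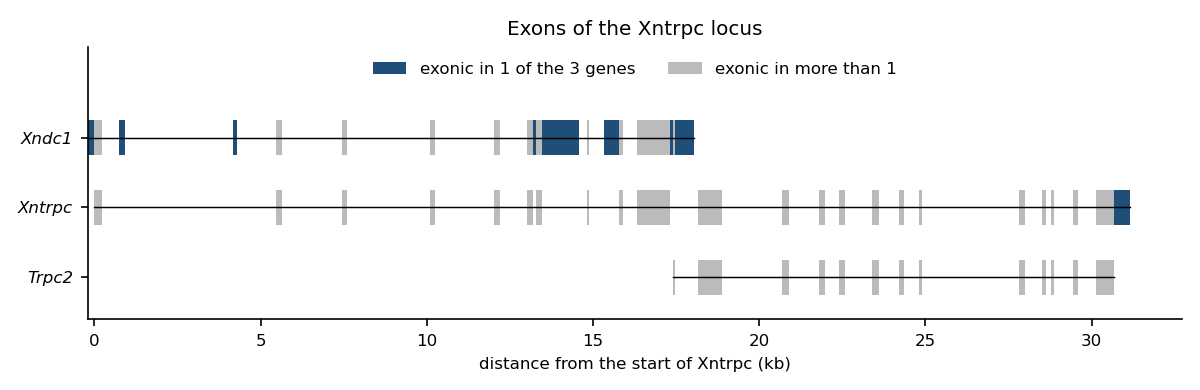
Merged exons of Xndc1, Xntrpc and Trpc2 by distance from the start of Xntrpc (kb), all on the plus strand. Blue blocks are exonic in 1 of the 3 genes and grey blocks in more than 1, and the only blue block of Xntrpc is the 468 bases at its end.

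Xntrpc showed the most graded differences, with all 6 strain pairs called. Its lowest, median and highest normalized counts were 1048, 1197 and 1425 in 129, 859, 1029 and 1187 in SWR, 720, 831 and 934 in SJL, and 670, 704 and 829 in B6. The 129 libraries did not overlap those of SJL or B6, and the SWR libraries did not overlap those of B6. The LFC by edgeR was -0.76 ± 0.07 for B6 minus 129 (FDR 2.1e-11), -0.55 ± 0.07 for SJL minus 129 (FDR 3.3e-08) and -0.24 ± 0.07 for SWR minus 129 (FDR 0.0035). Within the lower strains it was 0.52 ± 0.07 for SWR minus B6 (FDR 1.1e-07), 0.30 ± 0.07 for SWR minus SJL (FDR 5.2e-04) and 0.22 ± 0.07 for SJL minus B6 (FDR 0.0097). Xndc1, whose exclusive exons lie upstream, averaged 101.2 normalized counts in SWR, 96.6 in B6, 95.8 in 129 and 87.2 in SJL, with SDs of 10.6 to 21.5.

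Ano1 (chr7:144588549-144751974, minus strand) encodes a calcium-activated chloride channel, and B6 stood below the other strains. The lowest, median and highest normalized counts were 1245, 1461 and 1787 in B6, 1979, 2256 and 2407 in 129, 1744, 1978 and 2143 in SJL, and 1898, 2142 and 2474 in SWR. Every B6 library lay below every 129 and SWR library, and only the highest B6 library, female replicate 1, which is rich in gland reads, reached the range of SJL. By edgeR the LFC was -0.63 ± 0.06 for B6 minus 129 (FDR 1.5e-10), 0.58 ± 0.06 for SWR minus B6 (FDR 1.5e-09) and 0.44 ± 0.06 for SJL minus B6 (FDR 3.2e-07). SJL was also slightly below 129 (LFC -0.19 ± 0.06, FDR 0.012). SWR and SJL did not pass (LFC 0.13, FDR 0.089), although this pair passed when B6 female replicate 1 (FDR 0.047), SWR male replicate 2 (FDR 0.046) or SJL male replicate 2 (FDR 0.038) was left out.

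Ano1 is also expressed in glands and in smooth muscle. The 4 gland markers had medians of 571 rpm for B6, 772 for SJL, 1103 for SWR and 1555 for 129, so that B6 had the lowest median here too. The ranges overlapped widely, with 217 to 8221 rpm in B6 and 366 to 8296 in 129. Of these 4 genes, 1 had an FDR under 0.05 in at least 1 strain pair, where 80.1% of all tested genes did. The 5 smooth muscle markers had medians in the opposite order, 243 rpm for B6, 219 for SJL, 180 for SWR and 103 for 129. Of these markers 4 passed the filter. Among them 3 were called with an FC above 2 in at least 1 strain pair, where 19.8% of all tested genes were. Leaving out the 2 libraries richest in gland reads gave an LFC of -0.69 for B6 minus 129 (FDR 1.3e-11 by edgeR). The part of gland cells and of smooth muscle in the difference was not tested.

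Ano2 (chr6:125690419-126040126, plus strand), the other calcium-activated chloride channel of VSNs, was the gene for which no strain pair passed. Its lowest, median and highest normalized counts were 2023, 2402 and 2538 in 129, 1876, 2396 and 2528 in B6, 2172, 2445 and 2655 in SJL, and 2123, 2325 and 2530 in SWR. The ranges of all strains overlapped almost entirely. The 6 LFCs ran from -0.08 to 0.07 with an SE of 0.05 each, and the FDR of the overall test by edgeR was 0.44. In B6 there were thus 1443 normalized counts of Ano1 beside 2337 of Ano2 (means of 8 libraries), and in 129 there were 2236 beside 2362.

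Promoters are shown as 300 bases of RefSeq on GRCm38.p6, from 250 before to 50 after the start. They are those of Xntrpc and Ano1, which were lower in B6 than in 129, and of Gng13, high in SJL. That of Trpc2 is added because most of its exon bases lie in Xntrpc. The window of Xntrpc (chr7:102065241-102065540, plus strand) is also that of Xndc1, and the others are Trpc2 (chr7:102082866-102083165, plus strand), Ano1 (chr7:144738524-144738823, minus strand) and Gng13 (chr17:25716922-25717221, plus strand).
Xntrpc: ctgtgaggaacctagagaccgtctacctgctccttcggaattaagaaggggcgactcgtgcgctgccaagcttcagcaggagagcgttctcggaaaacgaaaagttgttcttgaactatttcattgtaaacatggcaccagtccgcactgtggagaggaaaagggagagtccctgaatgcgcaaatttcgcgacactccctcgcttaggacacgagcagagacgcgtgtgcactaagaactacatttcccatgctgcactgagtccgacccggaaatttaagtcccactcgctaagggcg
Trpc2: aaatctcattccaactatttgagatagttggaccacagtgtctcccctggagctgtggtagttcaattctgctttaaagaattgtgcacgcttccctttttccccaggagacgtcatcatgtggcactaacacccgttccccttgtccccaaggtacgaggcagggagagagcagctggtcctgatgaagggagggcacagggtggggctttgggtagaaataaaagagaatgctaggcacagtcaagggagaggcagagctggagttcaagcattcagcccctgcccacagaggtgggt
Ano1: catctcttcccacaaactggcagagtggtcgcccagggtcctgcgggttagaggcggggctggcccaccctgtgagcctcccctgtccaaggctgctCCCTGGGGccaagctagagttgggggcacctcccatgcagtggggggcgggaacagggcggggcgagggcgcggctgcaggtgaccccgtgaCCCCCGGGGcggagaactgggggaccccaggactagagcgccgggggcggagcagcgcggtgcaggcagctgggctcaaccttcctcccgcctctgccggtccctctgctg
Gng13: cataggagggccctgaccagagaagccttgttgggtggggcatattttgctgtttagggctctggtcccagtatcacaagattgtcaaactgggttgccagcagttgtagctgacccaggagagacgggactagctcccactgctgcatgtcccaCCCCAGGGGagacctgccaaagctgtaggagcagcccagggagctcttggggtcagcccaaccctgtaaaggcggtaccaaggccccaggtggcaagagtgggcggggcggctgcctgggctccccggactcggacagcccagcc
Capitals mark matches of CCCNNGGG on either strand, the core of sites bound by the Ebf factors of olfactory neurons. The windows of Xntrpc and Trpc2 held none, and the 2 matches of Gng13 overlap, as do 2 of the 3 of Ano1. A second window of Gng13 (chr17:25717278-25717577, plus strand), not shown, held 0 matches. Of the 10 windows found for 7 of the 9 genes, 3 held a match, in Ano1, Ano2 and Gng13, and 13.7% of all 32817 windows hold one.

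Omp (chr7:98143359-98145502, minus strand, 1 exon), the olfactory marker protein of mature sensory neurons, was the most abundant of the 9 genes, at rank 26 of 18382 by mean normalized count. The lowest, median and highest normalized counts were 17511, 19641 and 21055 in 129, 14488, 16906 and 18385 in B6, 15651, 17479 and 19135 in SJL, and 16761, 18861 and 23292 in SWR. All strains overlapped. By edgeR, B6 was below 129 by an LFC of -0.24 ± 0.06 (FDR 0.0015) and below SWR by 0.19 ± 0.06 (FDR 0.011). SJL minus 129 was near the threshold (LFC -0.16, FDR 0.040), and leaving out any of 15 libraries took it past it (FDR up to 0.13).

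Set against Omp, 19 of the 48 LFCs of the other 8 genes moved by more than the SD between libraries of a strain. The LFC of B6 minus 129 relative to that of Omp was -0.52 for Xntrpc, -0.40 for Ano1, -0.22 for Gnai2 and -0.18 for Gnao1, and 0.69 for Itpr3. For SJL minus 129 it was 0.90 for Gng13 and 0.81 for Itpr3. Several called differences were then near 0, in SWR minus B6 those of Gnao1 (0.02), Gng8 (0.06) and Gng13 (0.05), and in SJL minus 129 that of Ano1 (-0.03). Ano2, which was not called, was 0.22 for B6 minus 129 on this scale. Xntrpc reads amounted to 6.19% of Omp reads in 129, 5.41% in SWR, 4.73% in SJL and 4.30% in B6 (geometric means). These relative values carry no test. Between libraries of a strain, dividing by Omp lowered the SD of the log2 value from 0.14 to 0.09 for Gnai2, from 0.14 to 0.10 for Xntrpc and from 0.11 to 0.09 for Ano2. It did not lower that of Gnao1 (0.19 and 0.20), Gng8 (0.16 and 0.17), Gng13 (0.21 and 0.22) or Itpr3 (0.22 and 0.25).

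**Figure D4:**
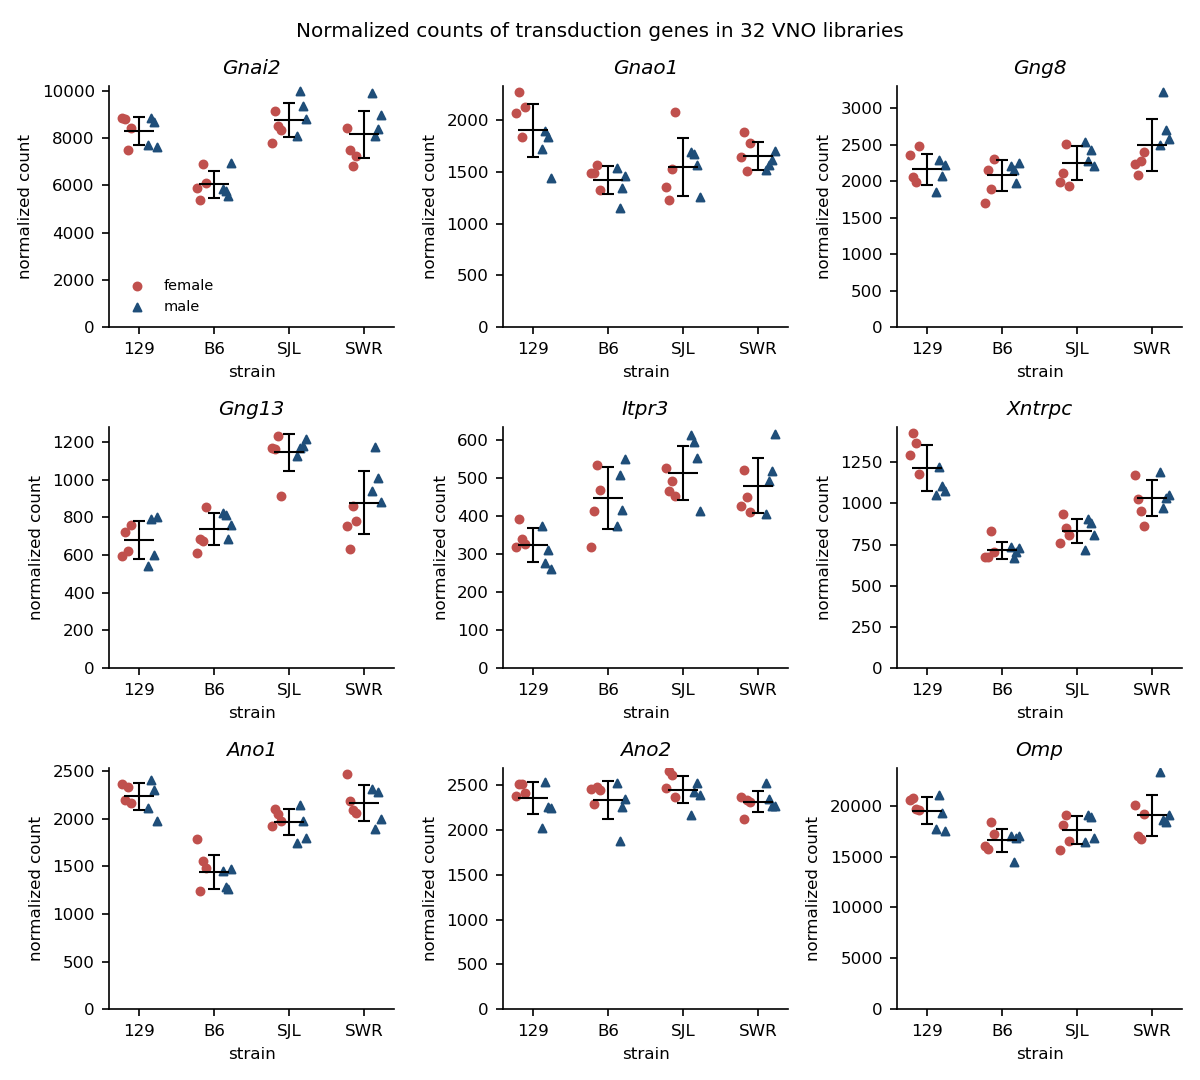
Normalized counts (vertical axes, from 0) of the 9 genes in each of 32 libraries by strain, with females as circles, males as triangles and the mean ± SD of 8 libraries in black. Xntrpc falls in steps from 129 (mean 1213) to SWR (1032), SJL (833) and B6 (715), whereas the means of Ano2 lie between 2319 and 2452.

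Levels of different genes can be compared only per length, here as mean normalized counts per kb of exon not shared with another gene. Omp reached 8490 ± 871 (SD over 32 libraries), Gnai2 2068 ± 337, Xntrpc 2026 ± 460, Gng8 1477 ± 193, Gng13 1113 ± 277, Ano2 440 ± 31, Ano1 313 ± 56, Gnao1 147 ± 24, Itpr3 49.0 ± 10.8 and Plcb2 23.0 ± 6.6. The value of Xntrpc holds only if the counts rest on the 468 bases exclusive to it in GENCODE M21. It may then be too low, since read pairs that also reach shared exons are not counted. Gnai2 was above Gnao1 in every library on this scale. Gnai2 and Xntrpc are neighbours in this order that changed places between strains, with 1599 against 1527 in B6 and 2197 against 2593 in 129, and over all libraries they did not differ beyond their spread. Gng13 was level with Gng8 in SJL (1482 and 1476) and below it in 129 (879 and 1422).

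**Figure D5:**
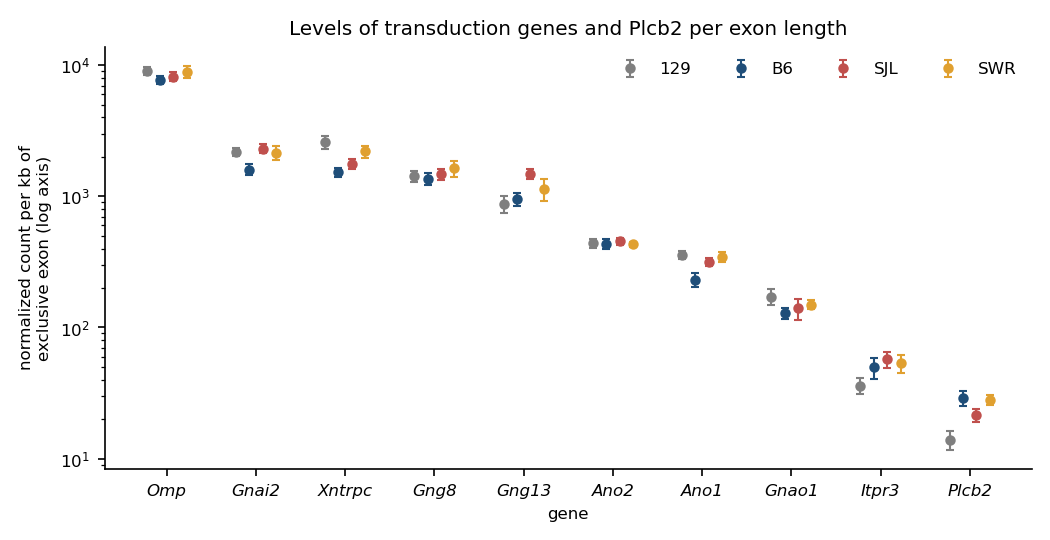
Mean normalized count per kb of exclusive exon (log axis) of the 9 genes and Plcb2 in each strain, with bars of 1 SD over 8 libraries. The genes span from 8490 (Omp) to 23.0 (Plcb2) on average, and strain differences are small beside the differences between genes.

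Sex was not associated with a called difference in any of the 9 genes. In the comparison of 16 males with 16 females, with strain as a term, 0 of 9 genes had an FDR under 0.05 by edgeR, where 0.283% of all genes did and 0.0381% passed an FC above 2 with an FDR under 0.01. At an unadjusted p under 0.05 there were 2, and DESeq2 called 0 as well. These were Gng13 (LFC of males minus females 0.16 ± 0.06, unadjusted p = 0.017, FDR 0.43 by edgeR) and Gng8 (0.11 ± 0.05, unadjusted p = 0.034, FDR 0.49 by edgeR). The LFCs of all 9 genes lay between -0.11 and 0.16.

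Within strains 0 of 36 comparisons between the sexes were called by edgeR or by DESeq2, against 0.348% of all genes in SWR, 0.125% in SJL, 0.103% in B6 and 0.0816% in 129. At an unadjusted p under 0.05 there were 5. In SWR, Gng13 averaged higher in males by an LFC of 0.39 ± 0.12 (FDR 0.21), Gng8 by 0.29 ± 0.10 (FDR 0.30) and Gnai2 by 0.23 ± 0.09 (FDR 0.40), and in 129, Gnao1 and Xntrpc averaged lower in males by LFCs of -0.27 ± 0.12 (FDR 0.57) and -0.24 ± 0.09 (FDR 0.50), all by edgeR. Without a filter on low counts the Gng13 difference in SWR passed (FDR 0.026). The interaction of sex and strain was called for 0 of 9 genes by edgeR and by DESeq2 (0.0163% of all genes), and 0 had an unadjusted p under 0.05.

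The other genes of the pathway were listed as 63 genes, of which 55 passed the filter on low counts. Among these, 46 had an FDR under 0.05 in at least 1 strain pair, where 80.1% of all genes did, and 9 also had an FC above 2, where 19.8% of all genes did. In B6 against 129, 16 were higher in B6 (27.3% of all genes) and 17 lower (25.5%), and 8 passed an FC of 2 (11.1%). In SJL against 129, 16 were higher (18.9%), 10 lower (19.4%) and 3 past an FC of 2 (8.38%), and in SWR against 129, 13 were higher (19.9%), 11 lower (21.8%) and 4 past an FC of 2 (7.73%). In SJL against B6, 22 were higher (22.3%), 13 lower (23.4%) and 4 past an FC of 2 (7.99%), and in SWR against B6, 14 were higher (19.8%), 8 lower (21.1%) and 5 past an FC of 2 (8.05%). In SWR against SJL, 7 were higher (15.5%), 9 lower (17.0%) and 0 past an FC of 2 (4.5%).

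The largest differences among them were in Gng4 and Kcnj3. Gng4, another G protein gamma subunit, had 15.3 to 29.9 normalized counts in 129, whereas B6 had 102.0 to 134.8, SJL 209.8 to 252.8 and SWR 220.7 to 299.7. Its LFC was 3.35 ± 0.09 for SWR minus 129 (FDR 2.7e-25) and 2.30 ± 0.10 for B6 minus 129 (FDR 6.0e-20), by edgeR. Kcnj3, a potassium channel subunit opened by G protein beta and gamma dimers, had 13.0 to 27.8 normalized counts in B6, 77.6 to 103.0 in 129, 65.3 to 115.2 in SJL and 130.3 to 182.6 in SWR. Its LFC was 3.11 ± 0.12 for SWR minus B6 (FDR 3.0e-21) and -2.22 ± 0.12 for B6 minus 129 (FDR 1.0e-16), by edgeR. Among the gamma subunits, Gng4 thus rose where the more abundant Gng8 moved by an LFC of 0.19 or less relative to 129.

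Other called genes were less abundant or rested on few libraries. Ano4, an anoctamin, averaged 49.6 ± 7.4 (SD, n = 8) normalized counts in 129 and 46.5 ± 11.3 in B6, but 13.8 ± 4.6 in SJL and 14.7 ± 4.3 in SWR, without overlap (LFC of SJL minus 129 -1.82, FDR 3.8e-10 by edgeR). Trpc6 averaged 3.6 ± 1.4 in 129 and 11.1 to 13.2 in the other strains. Gngt2 was higher in B6 than in 129 (LFC 1.26, FDR 9.3e-05 by edgeR). Gnal and Gnat3 had medians of 30.04 and 13.2 normalized counts in B6 but highest values of 226 and 91.7, and the FC above 2 of Gnal was lost without B6 male replicate 3 (LFC 0.87 for B6 minus 129).

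Some other genes varied closely with single members across the 32 libraries after centring by strain, which describes these libraries and shares their depth and tissue composition. Omp was most like Rab3a (Pearson's r = 0.920), Dusp26 (0.894) and Uchl1 (0.892), genes known from neurons. Gnao1 was most like Wipf2 (0.867) and Spock1 (0.839), and Gnai2 most like Lrrc59 (0.855), Aplp1 (0.848) and Flot2 (0.845). For Gng13 the 3 genes were Vmn1r85 (0.846), Zwint (0.839) and Vmn1r69 (0.827), of which 2 are V1R receptors of apical VSNs. Gng8 was most like Acbd7 (0.813), Ctxn3 (0.807) and Hmox2 (0.803), and Itpr3 was close to Myh14 (0.766) and Cep170b (0.754). Xntrpc was most like Scrn1 (0.865), Pgghg (0.855) and Fbxo10 (0.830), Ano1 like BC022687 (0.851), Acly (0.851) and Stat3 (0.836), and Ano2 like Tarsl2 (0.832), Spats2 (0.828) and Fam3c (0.822). Among the 9 genes, Gnai2 and Xntrpc followed Omp (r = 0.767 and 0.716), and the lowest r of a pair was -0.393, for Gnao1 and Gng13.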

How the data were processed

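RNA was isolated from the VNO epithelium of individual mice and sequenced after ribodepletion with a stranded kit. The authors aligned the reads with STAR to GRCm38 (mm10), and the deposited counts are uniquely mapped reads per Ensembl gene on the matching strand, without reads shared by overlapping genes. The authors also deposited a normalized signal, in which each library's counts are scaled by a DESeq2 size factor. Exons came from GENCODE M21. The count test was edgeR 4.0.16 (R 4.3.3, limma 3.58.1) with TMM, filterByExpr and quasi-likelihood F tests, and FDR was taken over 18382 genes. Strain pairs had sex as a term and sexes had strain, with the 8 group means for tests within strains and interaction. SE is the absolute LFC over the square root of F. The steps were tested on simulated data. Alternatives were DESeq2 1.42.0, its size factors in edgeR, no filter, glmTreat with an FC of 1.2, LFC relative to Omp, the replicate number as a block, and each library left out. Replicate numbers came from the lane in the library descriptions.

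Named genes were the 9 members, Trpc2, Plcb2, up to 10 other pathway genes with an FC above 2 and an FDR under 0.05, and the 3 genes with the highest r for each member (mean normalized count of at least 100), of which a few are not reported here. Markers were listed for further cell types of the tissue. Members and lists were chosen with earlier results of these data known. Labels give the 129 mice as 129S6/SVEV, and the paper names another 129 substrain.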

Additional observations from a re-analysis of the deposited data

Results flagged for a closer look

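Of 108 groups examined (each of the 9 genes in 4 strains and in 8 groups of strain and sex), 5 held a library whose gap to the nearest other, divided by the range of the group, exceeded Dixon's 95% value, as chance would give in about 1 of 20 groups. Gng13 in SJL female replicate 4 was 913, below the 1124 to 1233 of the other 7 SJL libraries. Xntrpc in B6 female replicate 3 was 829, above the 670 to 735 of the other B6 libraries. B6 male replicate 2 was low for Ano2 (1876, against 2257 to 2528 in B6) and, among B6 males, for Omp (14488, against 16811 to 17073). Omp in SWR male replicate 1 was 23292, above the 18454 to 19124 of the other SWR males. All values are normalized counts. None of these libraries was among those rich in gland reads.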

How the results depend on the processing

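Of the 30 comparisons between strains called for the 9 genes, 25 were called under DESeq2, its size factors in edgeR, no filter, the replicate block and each of 32 libraries left out. The other 5 were SWR against 129 for Gnao1 and Gng8, SWR against B6 for Gnao1 and Gng13, and SJL against 129 for Omp. The number called was 29 with DESeq2, 29 with its size factors, 28 without a filter, 27 with the replicate block and 26 to 30 with a library left out. It was 15 when tested against an FC of 1.2, which asks for a larger difference. The number called within strains between the sexes was 1 without a filter (0 otherwise). The number called overall (8), between the sexes (0) and for the interaction (0) was the same under each alternative run.

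Same-numbered libraries did not deviate together (median correlation -0.013 over 112 pairs of libraries, 22 above 0.1, with 5 of 32 libraries closest to their own number), so that the numbers were not taken to pair the mice. With the replicate block Gnao1 lost SWR against 129 (FDR 0.053) and against B6 (FDR 0.058), Omp lost SJL against 129 (FDR 0.051), and the Gnai2 to Gnao1 ratio of SWR minus B6 (0.21) had an exact adjusted p of 0.094.

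Without the 2 libraries rich in gland reads the log2 Gnai2 to Gnao1 ratio was 0.15 for SWR minus 129 and 0.20 for SWR minus B6, no longer past the threshold. With a library left out these ranged from 0.12 to 0.19 and from 0.17 to 0.24, crossing the threshold in 7 and 15 cases, and SWR minus SJL ranged from -0.29 to -0.15, with 2 cases past it. Small LFCs changed sign. Ano2 in SWR minus B6 was 0.020 without a filter and -0.049 to 0.011 with a library left out, Ano2 in B6 minus 129 was -0.045 to 0.022 (-0.053 without the 2 libraries), and Gnai2 in SWR minus 129 was -0.066 to 0.0023. Relative to Omp, 19 of 48 LFCs moved by more than the SD between libraries of a strain, and 0 called LFCs changed sign. The cause was not tested.

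Depth limits precision, as do the 468 bases of Xntrpc if its counts rest on them, replicates are single mice, and no protein was measured.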

Other observations

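The Gnai2 to Gnao1 read ratio averaged 5.17 in 16 males and 4.58 in 16 females, and the log2 ratio was higher in males in 4 of 4 strains, by 0.18 on average. The V1r to V2r read ratio averaged 0.414 in males and 0.374 in females, higher in males in 4 of 4 strains by 0.14 on the log2 scale. Both comparisons were chosen after the values had been seen, so they are given as a description and without a p-value.

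In SWR the Gnai2 to Gnao1 ratio was 5.16 to 6.54 in the 4 males and 3.98 to 5.12 in the 4 females, and in 129 it was 4.46 to 5.26 in males and 3.87 to 4.28 in females, without overlap in either. The V1r to V2r ratio of SWR was 0.390 to 0.416 in males and 0.340 to 0.376 in females, also without overlap, whereas in 129 the lowest male (0.4275) lay just below the highest female (0.4287). In B6 and SJL the sexes overlapped for both ratios, and whether strains differ in this was not tested. With a library left out in turn the average log2 difference was 0.14 to 0.22 for Gnai2 to Gnao1 and 0.13 to 0.15 for V1r to V2r. Without the 2 libraries rich in gland reads it was 0.18 and 0.14. Neither Gnai2 (LFC of males minus females 0.07 ± 0.05, FDR 0.68) nor Gnao1 (-0.11 ± 0.06, FDR 0.60) passed by edgeR.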
